A study of Mus musculus with 10 samples.

Results

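The cell cycle and DNA replication genes studied here were 37 named mouse genes that dividing cells switch on, all of which were found by symbol among the 27179 Entrez gene IDs of the count table. They were divided by the step they serve: 22 act in mitosis and 15 in DNA replication or the entry into it. The measurements were RNA sequencing counts from whole cochleas of Pknox2-/- mice (KO, 5 libraries) and Pknox2+/+ mice (WT, 5 libraries), all at postnatal day 8. PKNOX2 is a homeodomain transcription factor, and the labels name no other allele, no agent, no strain and no sex, nor how the mutant allele was made or whether a library pooled animals. The series text calls the samples independent biological ones.

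A cell that enters the cycle first loads the MCM helicase at replication origins, then copies its DNA with the sliding clamp PCNA and a fresh supply of nucleotides, and later condenses its chromosomes, builds a spindle and splits. The E2F factors drive the genes of the first steps, and complexes that hold MYB and FOXM1 drive those of mitosis. The transcripts of both sets thus track how many cells of a tissue are cycling. In the mouse organ of Corti the hair cells and supporting cells leave the cycle before birth and the inhibitor p27Kip1 (Cdkn1b) helps to keep them out, while glia, mesenchyme, bone and marrow of the young temporal bone still hold dividing cells.

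Promoters of both sets were searched for DNA elements by which these genes are known to be grouped, and some with matches are shown. Of the 37 members 30 had an entry among the RefSeq promoters (GRCm38.p6), with 17 promoters of mitosis members and 15 of replication members. The 7 members with none were Mcm4, Ccne2, Ccna2, Foxm1, Tpx2, Aurkb and Kif20a. The windows ran from 250 bases before to 50 bases after the start given by each promoter entry, and both strands were searched. The E2F element (TTTGGCGC or TTTCGCGC) stood in 1 mitosis promoter and in 5 replication promoters (5.88% and 33.3%), and in 0.813% of all 32851 promoters of the table. The cell cycle homology region (CHR, TTTGAA) stood in 12 mitosis and 2 replication promoters (70.6% and 13.3%), and in 17.9% of all promoters. The CCAAT box stood in 15 mitosis and 11 replication promoters (88.2% and 73.3%), and in 37.4% of all. The sequences below are the 250 bases before the start, 5′ to 3′ on the gene's strand, with E2F, CHR and CCAAT matches in capitals. For mitosis they are the 2 members with the smallest p-values among those with a CHR match in that stretch. For replication Mcm6 and Mcm5 were the only members with an E2F match there, so p chose nothing. Their unadjusted edgeR p-values were large, at 0.956 and 0.983. Within that stretch alone E2F stood in 2 replication promoters (13.3%) and CHR in 7 mitosis promoters (41.2%).
Kif11, chr19:37376132-37376381, plus strand: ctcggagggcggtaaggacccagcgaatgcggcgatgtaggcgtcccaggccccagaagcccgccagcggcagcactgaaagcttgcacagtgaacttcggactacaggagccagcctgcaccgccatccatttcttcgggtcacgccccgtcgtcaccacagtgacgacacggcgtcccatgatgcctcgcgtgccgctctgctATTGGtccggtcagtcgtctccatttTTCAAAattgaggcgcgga
Mki67, chr7:135716380-135716629, minus strand: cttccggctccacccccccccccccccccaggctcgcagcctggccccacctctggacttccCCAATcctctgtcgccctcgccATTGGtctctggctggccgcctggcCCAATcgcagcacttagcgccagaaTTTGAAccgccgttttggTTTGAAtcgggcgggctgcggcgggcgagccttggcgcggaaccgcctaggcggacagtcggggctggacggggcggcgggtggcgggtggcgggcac
Mcm6, chr1:128359706-128359955, minus strand: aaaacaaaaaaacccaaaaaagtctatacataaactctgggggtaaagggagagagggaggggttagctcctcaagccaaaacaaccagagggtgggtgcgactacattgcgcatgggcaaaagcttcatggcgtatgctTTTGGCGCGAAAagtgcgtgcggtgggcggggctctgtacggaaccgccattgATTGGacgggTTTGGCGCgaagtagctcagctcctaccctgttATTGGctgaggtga
Mcm5, chr8:75109259-75109508, plus strand: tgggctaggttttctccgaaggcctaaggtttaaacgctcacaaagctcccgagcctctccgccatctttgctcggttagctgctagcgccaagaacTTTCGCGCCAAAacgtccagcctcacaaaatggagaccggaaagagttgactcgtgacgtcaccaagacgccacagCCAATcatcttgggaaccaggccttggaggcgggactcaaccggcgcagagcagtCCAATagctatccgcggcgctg
In Kif11 the CCAAT match began 45 bases before the start and the CHR match 19 bases before it. In Mki67 the 2 CHR matches lay 116 and 98 bases before the start, downstream of 3 CCAAT matches. The printed stretches of Mki67 and Mcm5 lie partly inside the RefSeq genes, whose 5′ ends are at 135716450 and 75109468. In Mcm6 and Mcm5 a pair of E2F matches on opposite strands overlapped and forms 1 run of capitals. A match describes the letters of the window and is not evidence of binding.

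Library totals lay between 16.6 and 19.4 M counts, and 16018 genes passed the filter on low counts. Pknox2 itself was at 21.1 ± 4.38 CPM in KO and 19.9 ± 1.96 CPM in WT (SD, n = 5 each; log2 fold change 0.08, SE 0.146), so its count over the whole gene does not check the labels. CPM here are counts brought to a common library size with TMM scaling. Lists of defining markers of hair cells, supporting cells, the stria vascularis and spiral ganglion neurons had no member at 0 in all libraries, and only Atoh1, a hair cell factor of earlier stages, was too low to be tested. Libraries KO 2, KO 3 and KO 5 stood apart in the balance of long and short transcripts, and the set medians, their counts and the members described by library are also given without them. Sex makeup differed too: 4 genes of the Y chromosome together had 0 to 209 CPM in KO and 102 to 225 CPM in WT, with KO 1 alone among KO libraries at the WT level. The part of sex in the members' values was not tested beyond fits with the sum of these genes' log2 CPM (prior count 2) as a term. On the log2 scale KO libraries with few Y-linked reads also differed from each other. The median deviation of the 4 genes was -5.79, -1.20, -3.41 and -5.28 in KO 2 to KO 5.

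No cell cycle member passed the test between KO and WT. All 37 passed the filter on low counts, and edgeR's quasi-likelihood test with Benjamini-Hochberg adjustment over all tested genes called 0 of them, where it called 3 of 16018 genes (0.0187%; 0.00624% higher and 0.0125% lower in KO). The smallest adjusted p among the members was 0.23, and DESeq2 and limma-voom also called none. At an unadjusted p under 0.05 there were 2 members, both with negative log2 fold changes, against 20.1% of all tested genes in either direction and 8.66% with lower values in KO. Fitted log2 fold changes (KO minus WT) were below 0 for 32 of the 37 and above 0 for 5, where 51.7% of all tested genes were below and 48.3% above 0. Their median was -0.26, and that of all tested genes was -0.01. They ran from -0.62 for Ccne2 to 0.21 for Tyms, and the KO and WT libraries overlapped for every member. Among all tested genes 2.37% had groups that did not overlap, 1.15% with KO above and 1.22% with KO below.

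**Figure D1:**
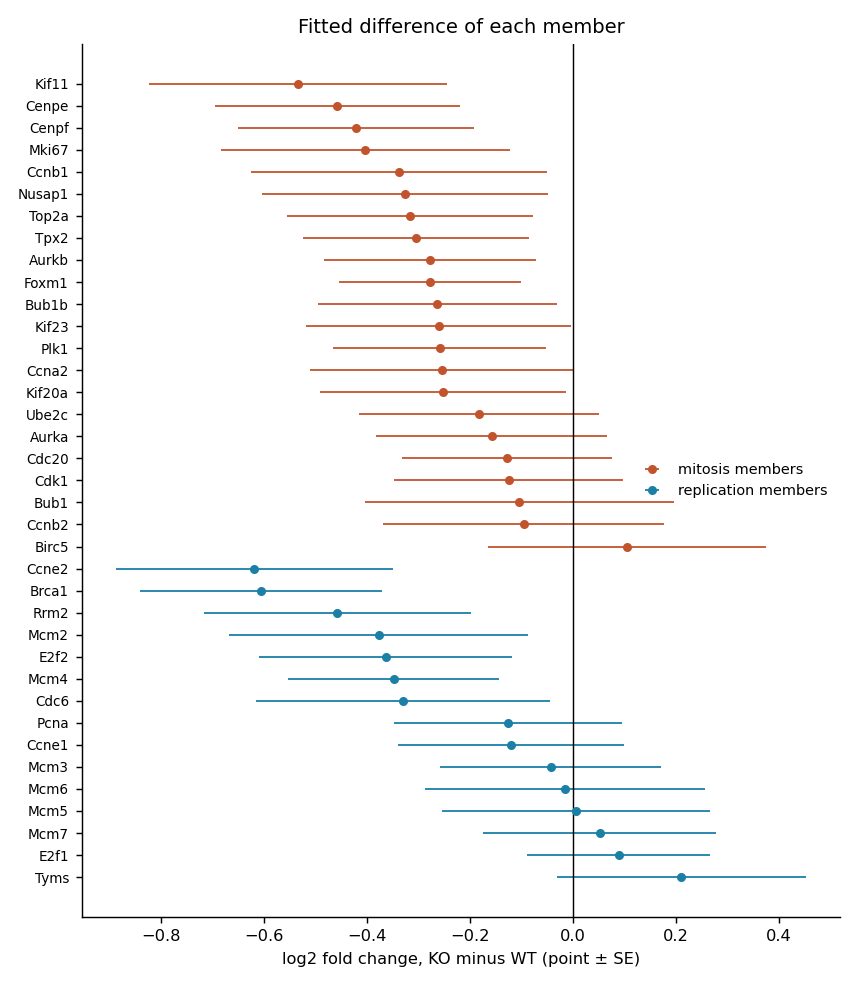
Log2 fold change (KO minus WT, horizontal axis) of each of the 37 members with its standard error, the 22 mitosis members above the 15 replication members. All but Birc5 in the mitosis set lie left of 0, the replication set spreads to both sides from -0.62 to 0.21, and none passed the test.

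The coefficient of variation was larger among KO libraries in 3 members (E2f1, E2f2 and Birc5) and larger among WT libraries in the other 34. For 24 of the 37 members all 5 KO libraries lay within the range of the 5 WT libraries, against 11.2% of all tested genes. WT 2 was the highest of the 10 libraries in 23 members, WT 3 in 13 and KO 5 in 1, while WT 4 was the lowest in 24 members, KO 4 in 9 and KO 2 in 4. Among the KO libraries KO 4 was the lowest in 29 members and KO 5 the highest in 22. The coefficient of variation among libraries had a median of 18.1% in KO and 36.1% in WT over the mitosis members. It was 22.4% in KO and 36.5% in WT over the replication members, and 20.3% in KO and 14.9% in WT over all tested genes. In bulk samples the number of dividing cells and the amount of these transcripts in each dividing cell cannot be told apart.

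**Figure D2:**
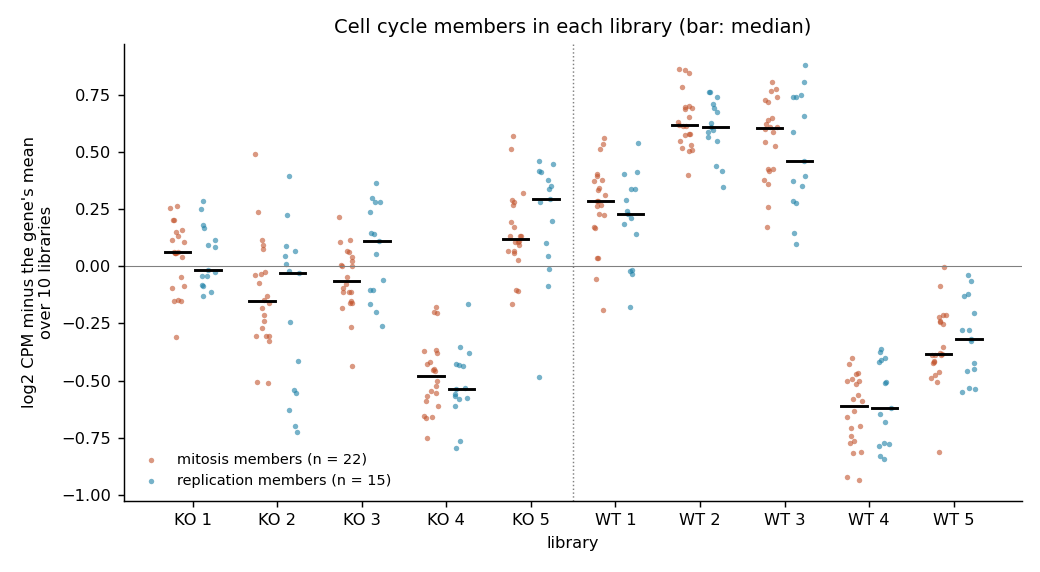
Log2 CPM of each member minus its mean over the 10 libraries (vertical axis), by library, with mitosis members left of replication members and bars at the medians. KO 4, WT 4 and WT 5 sit low and WT 1, WT 2 and WT 3 sit high for both sets.

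Both sets moved together from library to library. The per-library median deviation of the mitosis members from their means (log2 CPM) was 0.06, -0.15, -0.06, -0.48 and 0.12 in KO 1 to KO 5, against 0.28, 0.61, 0.60, -0.61 and -0.38 in WT 1 to WT 5. For the replication members it was -0.02, -0.03, 0.11, -0.54 and 0.29 in KO 1 to KO 5, against 0.23, 0.61, 0.46, -0.60 and -0.32 in WT 1 to WT 5. Each set thus spanned more than 1 log2 unit among WT libraries, and the KO values lay inside that span. The mitosis median minus the replication median stayed between -0.17 and 0.08 in KO libraries and between -0.06 and 0.14 in WT libraries.

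The median log2 fold change was -0.26 over the mitosis members and -0.13 over the replication members, a difference of -0.14 that is given without a test. Below 0 were 21 of 22 mitosis members and 11 of 15 replication members. Without KO 2, KO 3 and KO 5 all 22 mitosis and all 15 replication members were below 0, and without WT 2 these counts were 18 and 7. The former fit kept only KO 1 and KO 4 in the KO group, and KO 4 was the lowest KO library in 29 of the 37 members. The standard error of Kif11 was 0.409 in that fit, against 0.289 over all libraries. Leaving out single libraries moved the mitosis median between -0.40 (without WT 4) and -0.14 (without WT 2), and the replication median between -0.25 (without KO 5) and 0.04 (without WT 2), so the sign of the replication median turned without WT 2. Without KO 2, KO 3 and KO 5 the medians were -0.41 for mitosis and -0.35 for replication. Adjusted for the level of Y-linked genes, the median was -0.18 for mitosis and -0.08 for replication. KO 1 alone among KO libraries had the WT level of these genes, so genotype and that level are hard to tell apart in this fit. Standard errors were larger with the adjustment, at 0.429 against 0.289 for Kif11 and 0.377 against 0.260 for Rrm2. Without WT 4 an unadjusted p under 0.05 was reached by 14 members, against 17.6% of all genes tested in that fit. Without WT 5 it was reached by 6, against 12.2%, and none was called in either fit. The other removals of a single library gave from 0 members (without KO 2, WT 2 or WT 3) to 3 (without KO 1). In those fits 10.8% to 35.3% of all tested genes reached it.

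Log2 fold changes were lower for members with longer transcripts. The median transcript length was 3473.5 bases over the mitosis members and 3163 bases over the replication members. The 18 members with transcripts longer than 3381 bases were all below 0 (median log2 fold change -0.32), and the 19 shorter ones had a median of -0.13 with 14 below 0. All tested genes with a known length parted in the same way, with medians of -0.17 above and 0.13 at or below that length. Across the 37 members log2 fold change and length had a Spearman correlation of -0.47, a description over genes that share libraries. In each library the trend of log2 CPM from transcripts of 1 kb to those of 10 kb was -1.08, -0.61 and -0.67 in KO 2, KO 3 and KO 5, 0.54 and 0.35 in KO 1 and KO 4, -0.30 in WT 2 and 0.15 to 0.77 in the other WT libraries. With each library's length trend removed, an alternative chosen after the data were seen, the medians were -0.22 for mitosis and -0.22 for replication, a difference of -0.00055, and still no member was called. The correlation was then 0.34.

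**Figure D3:**
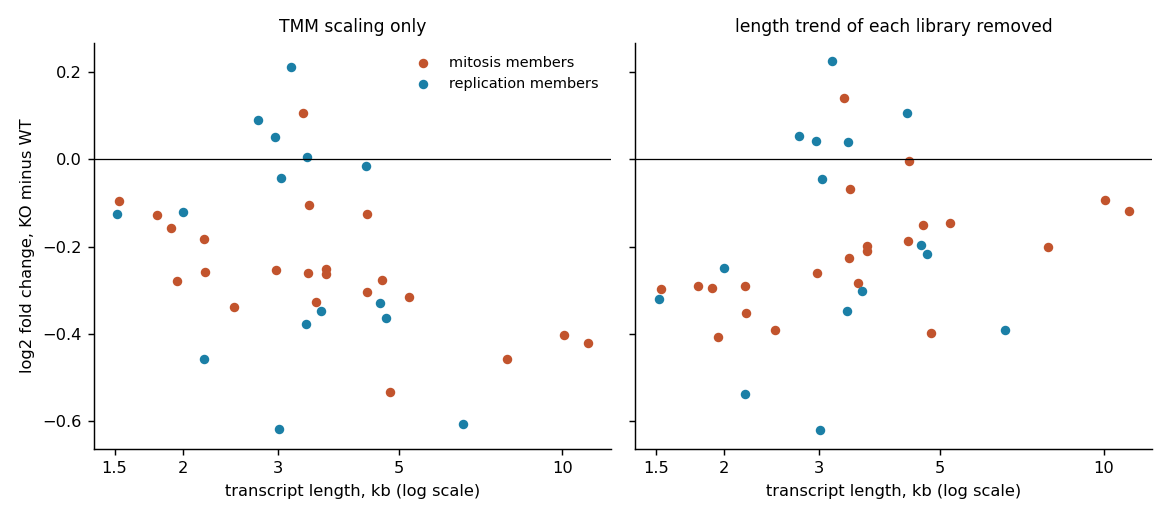
Log2 fold change (KO minus WT) of the 37 members against transcript length in kb (log axis), with TMM scaling only on the left and with each library's length trend removed on the right. On the left all 18 members longer than 3381 bases lie below 0; on the right Mki67 and Cenpf, the longest, lie at -0.09 and -0.12.

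Among the mitosis members, levels per kb of transcript averaged over all libraries were highest for Ube2c, the ubiquitin-conjugating enzyme of the anaphase-promoting complex, and lowest for Cenpf, a kinetochore protein. Ube2c was at 28.5 CPM per kb in KO and 32.3 CPM per kb in WT, and Cenpf at 2.23 and 2.99 CPM per kb in KO and WT. Ube2c had 57.7, 75.5, 60.2, 40.5 and 78.5 CPM in KO 1 to KO 5, against 77.2, 95.8, 85.6, 41.4 and 54.4 CPM in WT 1 to WT 5. Only KO 4 fell outside the WT range, just below WT 4 (log2 fold change -0.18, SE 0.233, edgeR adjusted p = 0.623). The value was -0.53 without KO 2, KO 3 and KO 5, -0.37 when adjusted for Y-linked expression, -0.066 without KO 4 and -0.050 without WT 2.

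The 3 smallest p-values of the mitosis set belonged to the kinetochore genes Cenpe and Cenpf and to the spindle motor gene Kif11, while the checkpoint gene Bub1 had the largest. Cenpe (Entrez 229841, chromosome 3, 135212563 to 135273540, GRCm38), the kinesin that links kinetochores to microtubules, had 22, 17.9, 15.6, 16.4 and 21.6 CPM in KO 1 to KO 5, against 31.2, 31.4, 34.7, 14.9 and 16.2 CPM in WT 1 to WT 5. WT 1 to WT 3 were above every KO library, while WT 4 was below them all and WT 5 lay among them. The fitted value was -0.46 on the log2 scale (SE 0.238), with an edgeR adjusted p of 0.275. Cenpf had 28.6, 19.5, 24.9, 21.4 and 30.0 CPM in KO 1 to KO 5, against 33.9, 41.5, 47.6, 19.5 and 24.0 CPM in WT 1 to WT 5 (log2 fold change -0.42, SE 0.229, adjusted p = 0.287). The value of Cenpf was -0.41 without KO 2, KO 3 and KO 5, -0.22 when adjusted for Y-linked expression, -0.26 without WT 3 and -0.12 with the length trend removed. That of Cenpe was -0.42, -0.32 and -0.33 in the first 3 of these fits and -0.20 in the last. The checkpoint kinase gene Bub1 and its relative Bub1b had -0.10 and -0.26.

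Kif11 (Entrez 16551, chromosome 19, 37376382 to 37421863), the motor that pushes the spindle poles apart, had 35.5, 24.1, 24.7, 18.9 and 27.6 CPM in KO 1 to KO 5, against 42.5, 54.0, 52.0, 18.3 and 22.8 CPM in WT 1 to WT 5. The groups overlapped through WT 4 and WT 5 (log2 fold change -0.53, SE 0.289, edgeR adjusted p = 0.286). The value was -0.47 without KO 2, KO 3 and KO 5 and -0.19 when adjusted for Y-linked expression. The other spindle genes, Nusap1 and Tpx2, whose products bundle and nucleate microtubules, had -0.33 and -0.30. Of the genes for cytokinesis and the chromosomal passenger complex, Aurkb, Kif20a and Kif23 had -0.28, -0.25 and -0.26, and Birc5, which encodes survivin, had 0.11, which became -0.53 without KO 2, KO 3 and KO 5.

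Foxm1 (Entrez 14235, chromosome 6, 128362994 to 128375886), the transcription factor of the late cell cycle, had 22.9, 14.4, 21.3, 17.8 and 18.2 CPM in KO 1 to KO 5, against 25.8, 27.0, 26.3, 15.2 and 20.4 CPM in WT 1 to WT 5. The fitted value was -0.28 on the log2 scale (SE 0.177; edgeR adjusted p = 0.34), -0.17 without KO 2, KO 3 and KO 5, -0.15 with the length trend removed and 0.056 when adjusted for Y-linked expression. The cyclins and kinases of mitotic entry, which trigger chromosome condensation and spindle assembly, ran from -0.34 for Ccnb1 to -0.10 for Ccnb2, with Cdk1 at -0.13, Plk1 at -0.26, Aurka at -0.16 and Ccna2 at -0.25. Mki67, whose protein coats mitotic chromosomes and is the common marker of cycling cells, had 252, 203, 203, 146 and 252 CPM in KO 1 to KO 5, against 333, 356, 391, 121 and 194 CPM in WT 1 to WT 5. WT 1 to WT 3 exceeded all KO libraries and WT 4 was the lowest of the 10 (log2 fold change -0.40, SE 0.281, adjusted p = 0.372). The value of Mki67 was -0.49 without KO 2, KO 3 and KO 5, -0.23 when adjusted for Y-linked expression and -0.09 with the length trend removed. Top2a, the topoisomerase that untangles sister DNA, had -0.32, and Cdc20, the activator of the anaphase-promoting complex, had -0.13.

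**Figure D4:**
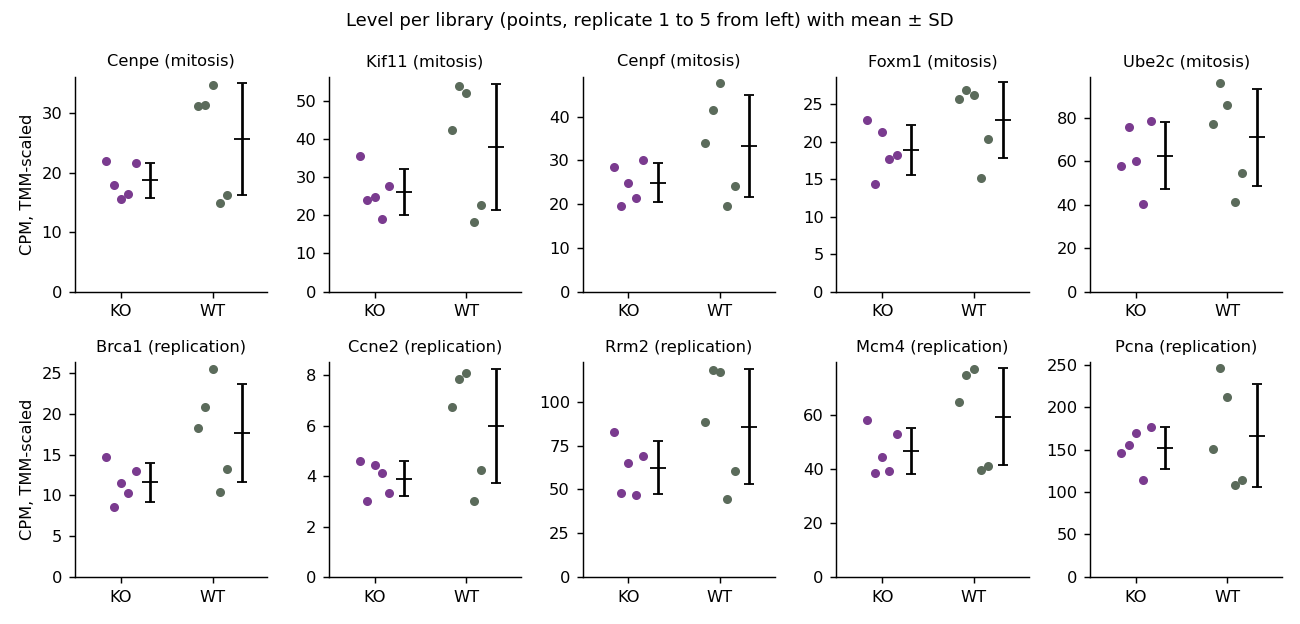
CPM per library (vertical axes from 0) for 10 members, KO left of WT, with points for replicates 1 to 5 from left to right and the mean ± SD beside them. In all 10 panels WT 1, WT 2 and WT 3 lie above WT 4 and WT 5, and the KO points overlap the WT points.

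Among the replication members, levels per kb were highest for Pcna, the sliding clamp, at 100.2 CPM per kb in KO and 109 CPM per kb in WT, followed by Mcm7 (39.9 in KO, 38.5 in WT) and Rrm2 (28.5 in KO, 39.1 in WT). They were lowest for Ccne2, a cyclin of S phase entry, at 1.30 CPM per kb in KO and 1.99 CPM per kb in WT. Pcna had 146, 155, 170.0, 114 and 176 CPM in KO 1 to KO 5, against 150.2, 245, 212, 108 and 115 CPM in WT 1 to WT 5. Every KO library lay inside the WT range (log2 fold change -0.13, SE 0.222, edgeR adjusted p = 0.731), and the value was -0.35 without KO 2, KO 3 and KO 5, -0.32 with the length trend removed and 0.057 without WT 2.

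Brca1 (Entrez 12189, chromosome 11, 101488761 to 101551955), which protects replication forks and repairs breaks by recombination, had the smallest unadjusted p of all members (0.0242). It had 14.7, 8.51, 11.5, 10.3 and 13.0 CPM in KO 1 to KO 5, against 18.3, 20.9, 25.5, 10.4 and 13.2 CPM in WT 1 to WT 5. The KO libraries lay at or near the level of WT 4 and WT 5, below WT 1 to WT 3. The fitted value was -0.61 on the log2 scale (SE 0.236; edgeR adjusted p = 0.23), -0.50 without KO 2, KO 3 and KO 5, and -0.28 (SE 0.351) when adjusted for Y-linked expression.

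Ccne2 (Entrez 12448, chromosome 4, 11190433 to 11204779) was the other member with an unadjusted p under 0.05 (0.0398). Its levels were 4.58, 3.0, 4.45, 4.14 and 3.31 CPM in KO 1 to KO 5, against 6.74, 7.85, 8.09, 3.02 and 4.24 CPM in WT 1 to WT 5. The fitted value was -0.62 on the log2 scale (SE 0.269; edgeR adjusted p = 0.241), -0.46 without KO 2, KO 3 and KO 5, and -0.24 when adjusted for Y-linked expression. Counts of Ccne2 were as few as 49 in a library, and its gene shares 5622 bases of span with Ints8, so reads of the pair could be confused in a count without strand. Its relative Ccne1 had -0.12, and the factors E2f1 and E2f2, which switch on the replication genes, had 0.09 and -0.36.

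Rrm2, the subunit of ribonucleotide reductase that sets the supply of DNA precursors, had 83.1, 48.1, 65.1, 47.0 and 69.3 CPM in KO 1 to KO 5, against 88.5, 118, 117, 44.7 and 60.6 CPM in WT 1 to WT 5. All KO libraries lay inside the WT range (log2 fold change -0.46, SE 0.260, edgeR adjusted p = 0.299). The value was -0.40 without KO 2, KO 3 and KO 5 and -0.080 when adjusted for Y-linked expression. Tyms, the enzyme that makes thymidylate for the same purpose, had 0.21, with 29.9 ± 6.45 CPM in KO and 25.8 ± 9.64 CPM in WT (SD, n = 5 each), and -0.16 without KO 2, KO 3 and KO 5.

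The 6 subunits of the MCM helicase form 1 ring, and their fitted values ran from -0.38 to 0.05 over all libraries. Mcm4 had 58.2, 38.6, 44.7, 39.5 and 52.9 CPM in KO 1 to KO 5, against 64.8, 75.0, 77.2, 39.6 and 41.1 CPM in WT 1 to WT 5 (log2 fold change -0.35, SE 0.205, adjusted p = 0.309, edgeR), and the value was -0.28 without KO 2, KO 3 and KO 5 and -0.082 when adjusted for Y-linked expression. Mcm2 had -0.38, while Mcm3, Mcm5, Mcm6 and Mcm7 lay between -0.04 and 0.05, and the loader gene Cdc6 had -0.33. Without KO 2, KO 3 and KO 5 the 6 subunits lay between -0.36 for Mcm6 and -0.25 for Mcm5. Standard errors over all libraries ran from 0.205 to 0.291, no subunit was called, and differences between subunits were not tested.

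Reads of some members could be shared with other genes, since the strand setting of the counting is not known here. Mcm7, Ccne2, E2f1, Ccna2, Aurka, Foxm1, Nusap1, Kif20a and Cdc20 overlap a counted neighbour, by as much as 4930 bases (Kif20a with Cdc23) and 5622 bases (Ccne2 with Ints8). Pcna, Tyms, Ccnb1 and Ccnb2 have a named pseudogene copy. Those of Tyms and Ccnb1 held 1 and 51 reads over all libraries, and those of Pcna and Ccnb2 have no row in the table, so reads shared with these were not measured.

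Other cell cycle genes from lists of 30 replication and 30 mitosis genes held no called gene either. The other mitosis genes had a median log2 fold change of -0.17 with 22 of 30 below 0, and the other replication genes 0.04 with 13 of 30 below 0. Smallest in p were Anln, an anchor of the cleavage furrow, with 15 ± 3.10 CPM in KO and 21.6 ± 5.52 CPM in WT (log2 fold change -0.53, SE 0.199, adjusted p = 0.225, edgeR, n = 5 each), and Aspm, a spindle pole protein, with 13.8 ± 3.08 and 21.2 ± 8.15 CPM in KO and WT (-0.62, SE 0.260). On the replication side they were Chaf1b, a histone chaperone behind the fork (0.50, SE 0.243), and Cdc7, the kinase that fires origins (-0.39, SE 0.203).

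Genes that admit cells to the cycle or hold them out were split in sign. Of 14 tested G1 cyclins, kinases and E2F relatives none was called and 9 were below 0 (median -0.11); their summed level was 857 to 921 CPM in KO and 763 to 923 CPM in WT. Cdk4, a kinase of G1, was at 222 ± 42.4 CPM in KO and 167 ± 22.9 CPM in WT (log2 fold change 0.41, SE 0.144, adjusted p = 0.217, edgeR, n = 5 each). Ccnd1, its cyclin, was at 106 ± 11.1 CPM in KO and 87.1 ± 7.18 CPM in WT (0.28, SE 0.0978). Of 14 tested inhibitors none was called and 7 were below 0 (median -0.01). Cdkn1c, the imprinted inhibitor p57Kip2, was at 434 ± 96.0 CPM in KO and 307 ± 50.3 CPM in WT (0.50, SE 0.165, adjusted p = 0.214), and Btg2, an antiproliferative gene, had -0.42 (SE 0.166). Cdkn1b, named for its role in the organ of Corti after its value was seen, was at 146 ± 12.2 CPM in KO and 169.6 ± 12.9 CPM in WT (-0.22, SE 0.0921, adjusted p = 0.236).

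Markers of blood-forming cells moved with the members from library to library. The list of neutrophil precursor genes (15 of 15 tested, 0 called, 14 with a log2 fold change below 0) summed to 343 to 1113 CPM in KO and 484 to 1858 CPM in WT. Its per-library median deviation was -0.20, 0.27, 0.06, -1.33 and 0.22 in KO 1 to KO 5, against 0.77, 1.20, 0.70, -0.65 and -0.80 in WT 1 to WT 5. B-cell precursor genes (12 of 12 tested, 0 called, all 12 below 0) summed to 149.9 to 244 CPM in KO and 198 to 453 CPM in WT, with deviations of -0.40, 0.05, -0.11, -1.0 and 0.08 in KO 1 to KO 5, against 0.53, 0.99, 0.61, -0.30 and -0.40 in WT 1 to WT 5. Erythroid genes (14 of 16 found and tested, 0 called, all 14 below 0) summed to 1997 to 5259 CPM in KO and 2196 to 6606 CPM in WT, with deviations of 0.11, -0.49, -0.24, -0.73 and 0.28 in KO 1 to KO 5, against 0.32, 0.81, 0.88, -0.93 and -0.03 in WT 1 to WT 5. KO 4 was the lowest KO library and WT 1 to WT 3 were the 3 highest WT libraries in all 3 lists, as they were for both sets of members, and no marker of the 3 lists was at 0 in all libraries. The part of these cells in the members' values was not tested.

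Markers of other cells of the cochlea and its bone differed in course. Hair cell genes summed to 207 to 279 CPM in KO and 234 to 299 CPM in WT, with deviations of 0.21 in WT 4 and -0.01 in WT 2. Supporting cell genes summed to 1020 to 1250.2 CPM in KO and 1096 to 1357 CPM in WT, and strial genes to 1172 to 1644 CPM in KO and 1363 to 1839 CPM in WT. Schwann cell genes (10 of 10 tested, 0 called, all with a log2 fold change below 0) summed to 9212 to 12651 CPM in KO and 14827 to 18949 CPM in WT, and had their highest deviation of all libraries in WT 4 (0.50), where the mitosis members were at -0.61. Endothelial genes (8 of 8 tested, 0 called, 4 below 0) had small deviations, of -0.07 to 0.08 in KO and -0.09 to 0.15 in WT, with KO 4 the lowest KO library and WT 1 to WT 3 the 3 highest WT libraries, as in the members. Osteoblast genes summed to 19305 to 23586 CPM in KO and 14847 to 18689 CPM in WT, with 10 of 10 log2 fold changes above 0 and none called. Macrophage genes (10 of 10 tested, 0 called, 7 above 0) also had WT 1 to WT 3 as the 3 highest WT libraries. Their deviations there were -0.05, 0.14 and -0.02, against -0.14 and -0.42 in WT 4 and WT 5. Among WT libraries cartilage and otic fibrocyte genes were highest in WT 5, spiral ganglion neuron genes in WT 4 and skeletal muscle genes in WT 2.

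**Figure D5:**
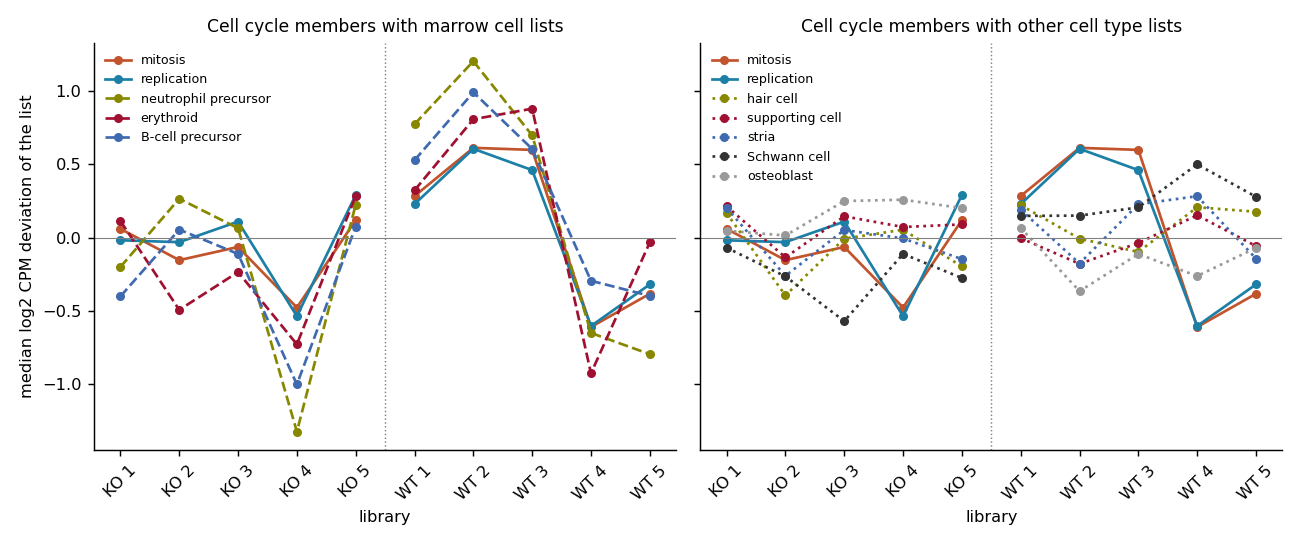
Median log2 CPM deviation of each gene list (vertical axis) in the 10 libraries, KO left of WT, for mitosis and replication members with marrow cell lists (left) and with other cell type lists (right). On the left the lists dip together in KO 4, WT 4 and WT 5, except erythroid genes in WT 5 at -0.03, and are high in WT 1 to WT 3; on the right the lists differ in course, and Schwann cell genes are highest in WT 4.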

How the data were processed

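Counts of reads per Entrez gene were deposited by the authors as raw whole numbers. The submitters' processing notes name HISAT2, featureCounts, limma and mm10; their versions and roles, the annotation and the strand setting were not stated there. All 10 columns carry sample titles, and 0 columns were left out. Symbols came from the RefSeq table of GRCm38.p6, which matched 25275 of 27179 IDs, and transcript lengths from the longest coding GENCODE M21 transcript.

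Counts were tested with edgeR 4.0.16 (R 4.3.3): TMM scaling, filterByExpr (minimum count 10, minimum total 15), quasi-likelihood F-test with group as the only term, Benjamini-Hochberg adjustment over 16018 genes, called at an adjusted p under 0.05. The standard error is the absolute log2 fold change over the square root of F. Deviations use log2 CPM with a prior count of 2. The procedure was tested on simulated data. DESeq2 1.42.0 and limma 3.58.1 (voom) were alternatives.

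Members, their division and all lists were chosen with earlier results of these data known, so no p was computed for a set. Named with all values were the 4 members of each set with the smallest p, those of highest and lowest level per kb, and Mki67, added after its values were seen. From each other cell cycle list the 2 genes with the smallest p are named. Values for other members are given by role.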

Additional observations from a re-analysis of the deposited data

Results flagged for a closer look

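Of 80 checks of single libraries within a group of 5, on the 37 members and the medians of both sets and their difference, 2 stood apart from the rest of their group; chance alone flags about 1 in 20 such groups. Aurka was at 14.0 CPM in KO 4, with 21.1 to 23.7 CPM in the other KO libraries. Kif20a was at 19.4 CPM in KO 1, with 14.6 to 15.7 CPM in the other KO libraries.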

How the results depend on the processing

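No member was called at an adjusted p under 0.05 in any alternative run, including DESeq2, limma-voom, other scalings and filters and the removal of each library. In the main fit none was called at an adjusted p under 0.1 either. The smallest adjusted p of a member over all fits was 0.0804 (edgeR), for Brca1 without KO 1, which is under 0.1. Over all genes the count called was 3, against 331 with DESeq2, 7 at an adjusted p under 0.1, 12 with the length trend removed (chosen after the data were seen), 1 with the replicate block, 1 without KO 2, 3 and 5 together, 0 with Y-linked expression as a covariate (332 at an unadjusted p under 0.05) and between 1 and 166 after the removal of any single library, 166 being without KO 1. The difference between the sets was -0.00055 with the length trend removed, against -0.14 in the main analysis. Leaving out single libraries gave medians of -0.40 to -0.14 for mitosis, -0.25 to 0.04 for replication and differences of -0.21 to -0.07. Over these fits 16 of the 37 members turned sign at least once and 21 did not. Among the 10 chosen by rule these were Pcna, with 0.057 without WT 2, and Foxm1, with 0.056 when adjusted for Y-linked expression; of the 37 members 8 turned under that adjustment, 7 without WT 2 and 5 without KO 2, 3 and 5. Same-numbered KO and WT libraries correlated at 0.16, 0.51, 0.03, 0.09 and -0.38 in their deviations. Of the KO libraries only KO 2 correlated best with the WT library of its own number. These correlations cannot decide whether the numbers pair libraries, since the length trends of single libraries enter them. With the replicate block the standard errors of the 10 members chosen by rule were all smaller, such as 0.220 against 0.289 for Kif11 and 0.153 against 0.233 for Ube2c. Without members that act in more than one phase the medians were -0.26 for mitosis and -0.12 for replication. With 5 libraries a group the members' standard errors were 0.177 to 0.301 on the log2 scale, and differences of that size were not detectable. Larger differences also went uncalled. Ccne2 had -0.62 (SE 0.269, edgeR adjusted p = 0.241), and Rag1 of the B-cell precursor list had -1.51 (SE 0.299, edgeR adjusted p = 0.179).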
